A study of Homo sapiens with 8 samples.

Results

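A set of 36 genes that copy DNA and supply its building blocks was followed through shRNA knockdown of SMARCB1, whose product belongs to the core of SWI/SNF chromatin remodellers, in 2 established human liver cancer cell lines. The set was chosen by gene symbol: every probe annotated to a listed symbol was taken, and the probe with the highest mean over the 8 arrays stood for its gene. All 36 genes had a probe, and 35 of them were bright enough to be tested, among 12411 tested genes of 20044 named on the array. CCNE2, which encodes cyclin E2, had its only named probe below the filter, at 6.38 to 6.61 on the log2 scale against a limit of 7.003, and no change was read from it. GINS1, at a mean of 7.07, lay just inside that limit.

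SK-Hep1 was derived from a liver adenocarcinoma and has features of endothelial cells. Huh7 was derived from a hepatocellular carcinoma. Each line gave 2 control and 2 SMARCB1 knockdown arrays of total RNA. Cells carrying shRNA were selected with puromycin at 1.25 µg/mL, and whether this holds for every control is not given. The SK-Hep1 controls are titled shcon and numbered 1 and 2, the SK-Hep1 knockdown arrays shSMARCB1 and 11 and 12, the Huh7 controls GFP_Con and 1 and 2, and the Huh7 knockdown arrays SMARCB1_11 and 3 and 4. Whether 11 and 12 name different hairpins, whether the controls of the lines carried the same construct and whether the lines were clones is not given in the sources used here. Both arrays of a group carry the same replicate number in their descriptions, and no label says whether they were separate cultures, so p-values cover the variation among these arrays alone, and that may be technical.

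Replication starts when the origin recognition complex, with CDC6 and CDT1, loads the MCM2-7 helicase onto DNA in G1. Entry into S phase activates that helicase through MCM10, CDC45 and the GINS complex, DNA polymerases alpha, delta and epsilon then copy the strands, and the sliding clamp PCNA, placed by the RFC clamp loader, keeps them on the template. Ribonucleotide reductase, thymidylate synthase and thymidine kinase supply the deoxynucleotides. Many of these genes are known targets of E2F transcription factors, which are held back by RB-family proteins until cyclin E and CDK2 are active, and in liver their expression marks hepatocytes or tumour cells that have entered the cycle.

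The differences of 7 genes, MCM6, GINS3, POLA1, RRM2, TYMS, TK1 and UHRF1, passed the threshold in Huh7 and between the lines whichever array was left out. Of these, promoters are shown for UHRF1, POLA1, TYMS and MCM6, chosen after the search because an E2F word lies wholly before their start. The word of GINS3 spans its start, and the windows of RRM2 and TK1 hold none, so the sequences shown do not stand for all 7. The sequences are RefSeq windows of build GRCh38.p14, the 200 bases before the annotated start, 5′ to 3′ on the strand of the gene. They lie at chr19:4909301-4909500 (plus strand), chrX:24693718-24693917 (plus strand), chr18:657453-657652 (plus strand) and chr2:135876444-135876643 (minus strand). Capitals mark exact matches on either strand to the E2F words TTTCCCGC and TTTGGCGC and to the CCAAT box.
UHRF1: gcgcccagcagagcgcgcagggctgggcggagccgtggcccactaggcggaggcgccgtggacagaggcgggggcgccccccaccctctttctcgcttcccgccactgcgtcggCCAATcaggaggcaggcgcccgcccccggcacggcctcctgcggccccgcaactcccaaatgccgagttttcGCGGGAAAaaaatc
POLA1: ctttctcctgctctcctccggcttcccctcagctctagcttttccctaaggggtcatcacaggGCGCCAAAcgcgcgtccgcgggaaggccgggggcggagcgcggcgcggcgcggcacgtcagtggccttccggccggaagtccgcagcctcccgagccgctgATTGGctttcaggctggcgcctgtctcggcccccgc
TYMS: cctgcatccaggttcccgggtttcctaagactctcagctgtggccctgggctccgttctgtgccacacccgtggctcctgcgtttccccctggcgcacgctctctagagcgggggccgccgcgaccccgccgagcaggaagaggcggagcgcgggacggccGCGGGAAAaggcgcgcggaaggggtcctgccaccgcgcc
MCM6: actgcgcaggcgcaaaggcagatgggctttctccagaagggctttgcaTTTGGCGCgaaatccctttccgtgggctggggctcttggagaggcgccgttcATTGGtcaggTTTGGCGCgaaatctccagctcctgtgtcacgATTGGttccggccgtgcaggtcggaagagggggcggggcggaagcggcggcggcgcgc

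The E2F word began 14 bases before the start in UHRF1, 137 in POLA1 and 39 in TYMS, each on the opposite strand, and MCM6 held TTTGGCGC at 152 and at 90 bases before its start. The promoter table held 32 of the 36 genes, with 42 windows of 300 bases, 250 before and 50 after a start. At least 1 of the 2 E2F words stood in a window of 16 of the 32 genes, against 4.42% of the 9991 tested genes with a window. By window the share was 38.1% of the 42, against 3.22% of the 14524 windows of tested genes and 2.27% of all 35116 windows. The other windows of UHRF1 held no E2F word. A CCAAT box stood in a window of 20 of the 32 genes (62.5%), against 43.7% of tested genes. By window the share was 61.9%, against 35.1% of the windows of tested genes and 34.6% of all windows. No E2F word overlapped another in the members' windows. The median difference between knockdown and control was 0.262 for the 16 with a word and 0.269 for the 16 tested genes without in Huh7, and -0.169 and -0.195 in SK-Hep1.

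The values were the deposited log2 intensities. The arrays had medians of 6.931 to 6.934, and the number of arrays, 2 a group, limits the precision of every value below. The deposited table holds almost no difference between the lines. Over genes, line means differed with an SD of 0.029, below the 0.0671 that replicate spread alone gives, and 0 of 12411 genes differed by more than 0.5. No level of a gene was therefore compared between the lines. The labelled cell types could not be checked against their markers for the same reason. A constant added per gene and line would leave the differences between knockdown and control within a line as they are. Whether such a constant was used is not given, and an adjustment that also rescaled the values would change those differences. Of 19 hepatocyte markers 17 were above the filter, with summed levels on the log2 scale of 14.24 to 14.25 in SK-Hep1 controls, 14.37 to 14.39 after knockdown, 14.57 to 14.58 in Huh7 controls and 14.40 to 14.45 after knockdown. Of 10 endothelial markers 2 were above it, with 8.72 to 8.82, 9.04 to 9.06, 8.86 to 8.98 and 8.75 to 8.80 in the same order, while CDH5 and VWF were below it. Of 9 immune markers 4 were above it, with 11.30 to 11.38, 11.92 to 11.97, 11.78 to 11.79 and 11.43 to 11.53, while the leukocyte gene PTPRC and the T cell gene CD3E were below it. The 4 immune markers did not move as one: CD14 was at 1.04 in SK-Hep1 and -1.07 in Huh7, CD68 at 0.61 and -0.15, LYZ at 0.12 and -0.12, and ITGAM at -0.07 and 0.31, with 2 called higher in SK-Hep1 and 1 lower and 1 higher in Huh7. The other markers did not move as one either. Of the 17 hepatocyte markers 2 were called higher (11.8%, against 8.31% of all tested genes) and 0 lower in SK-Hep1, SERPINA1 (0.58) and AFP (0.48). In Huh7 9 were lower (52.9%, against 19.5%) and 2 higher, APOA1 (0.99) and APOC3 (0.86). Of the endothelial markers, ENG was at 0.46 in SK-Hep1 and -0.08 in Huh7, and PECAM1 at -0.17 and -0.32. The summed levels moved with knockdown, and their part in the results was not tested. In such bulk samples fewer cells in S phase and less RNA per cell cannot be told apart.

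SMARCB1 itself was lower on all knockdown arrays. It read 10.68 and 10.62 on the SK-Hep1 control arrays against 9.30 on knockdown array 11 and 9.67 on array 12, and 10.84 and 10.95 against 9.22 and 9.27 in Huh7. The knockdown left 44.7% of the control signal in SK-Hep1 (-1.16 ± 0.107, SE, n = 2 a group, limma adjusted p = 0.000113) and 32% in Huh7 (-1.65 ± 0.107, limma adjusted p = 3.48e-06).

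After knockdown the replication genes had mostly lower values in SK-Hep1 and mostly higher values in Huh7. In SK-Hep1 9 of 35 fell and 0 rose in the limma fit, where 8.54% of all tested genes fell and 8.31% rose (16.8% in either direction). In Huh7 20 of 35 rose and 0 fell, where 19.4% of all tested genes rose and 19.5% fell (38.9% in either direction). At an unadjusted p under 0.05, 15 were lower and 1 was higher in SK-Hep1, and 22 were higher and 0 lower in Huh7. At that p 17.1% of all tested genes were lower and 15.4% higher in SK-Hep1, and 24.4% were higher and 23.9% lower in Huh7. The median difference over the 35 genes was -0.179 in SK-Hep1 and 0.263 in Huh7 on the log2 scale, against -0.0095 and 0.0006 over all tested genes. In sign alone, 28 of 35 lay below 0 in SK-Hep1 and 33 of 35 above 0 in Huh7, and 27 did both, where 26.2% of all tested genes did both. POLA1, POLE and TK1 passed the threshold in both directions, lower in SK-Hep1 and higher in Huh7, as 2.16% of all tested genes did. Control and knockdown arrays did not overlap for 18 genes that were lower and 3 that were higher in SK-Hep1 (28.7% and 26% of all tested genes), and for 29 genes that were higher and 0 lower in Huh7 (37.4% and 37.2%).

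**Figure D1:**
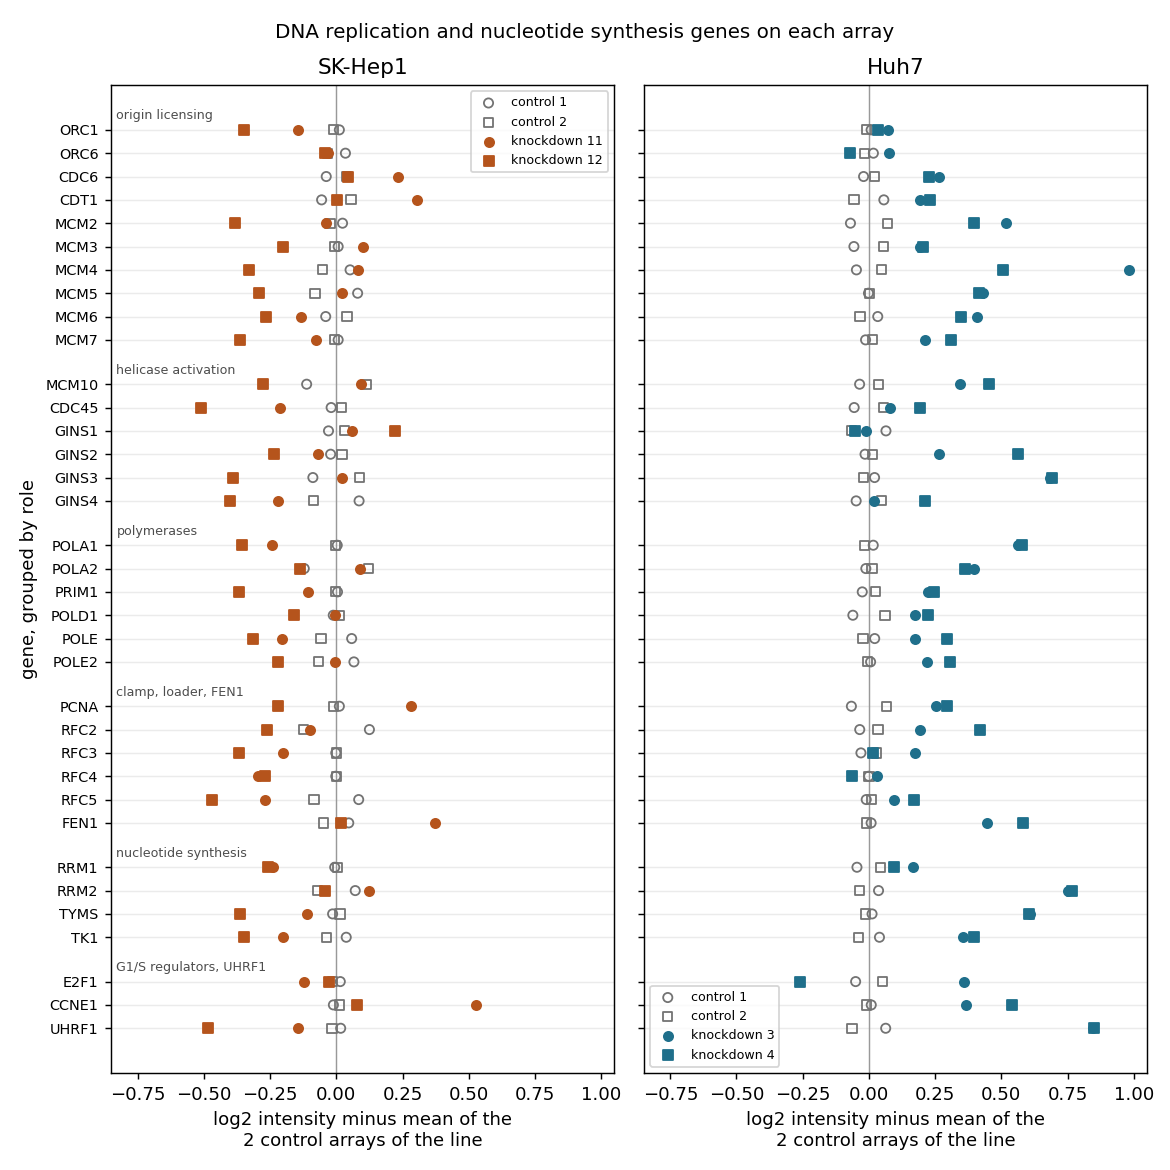
Each row is 1 of the 35 tested genes, grouped by role, and the horizontal axis is its log2 intensity on an array minus the mean of the 2 control arrays of the same line. Open symbols are controls and filled symbols are knockdown arrays, and the Huh7 knockdown arrays lie mostly to the right of their controls, while SK-Hep1 knockdown array 12 lies to the left of array 11 for all genes but GINS1, RFC4 and E2F1.

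The SK-Hep1 result rested on few arrays. The median over the 35 genes was -0.0689 on knockdown array 11 and -0.271 on knockdown array 12, each against the mean of the 2 controls. Array 11 was below both controls for 18 genes and above both for 9, and array 12 was below both for 29 and above both for 3. These are 51.4% and 25.7% for array 11, where 39.9% and 38.5% of all tested genes did so, and 82.9% and 8.57% for array 12, against 42.3% and 37%. Array 12 read higher than array 11 for 3 of the 35 genes (8.57%), where 48.2% of all tested genes read higher on it. SMARCB1 was lower on array 11, the array with the smaller shift of the replication genes, and what the arrays differ in was not tested. In the fits below with 1 array left out, fewer of all tested genes passed as well, except without knockdown replicate 11, where more did. Of the 9 genes called in SK-Hep1, none kept its call in every fit with 1 array left out. Leaving out control replicate 1 gave 0 lower genes, control replicate 2 gave 1, knockdown replicate 11 gave 18, and knockdown replicate 12 gave 1, when CCNE1, CDT1, FEN1 and PCNA were called higher. It was 4 when a Huh7 control and 5 when a Huh7 knockdown array was left out, which enter through the shared estimate of the spread.

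In Huh7 the 2 knockdown arrays had similar medians, though their difference varied by gene (SD 0.171, against 0.149 between the SK-Hep1 knockdown arrays). Their medians over the 35 genes were 0.255 on array 3 and 0.307 on array 4, and they were above both controls for 33 and 30 genes and below both for 0 and 3. Of all tested genes 43.7% and 44.3% were above both and 44.1% and 43.4% below both. Fewer of all tested genes passed the threshold without any 1 Huh7 array, and more without either SK-Hep1 knockdown array, as in the counts below. Leaving out control replicate 1 gave 10 higher genes, control replicate 2 gave 12, and each knockdown array gave 13. Leaving out an SK-Hep1 array gave 19 for a control and 25 for a knockdown array. The 10 genes MCM4, MCM5, MCM6, GINS3, POLA1, FEN1, RRM2, TYMS, TK1 and UHRF1 passed in all 8 of these fits.

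**Figure D2:**
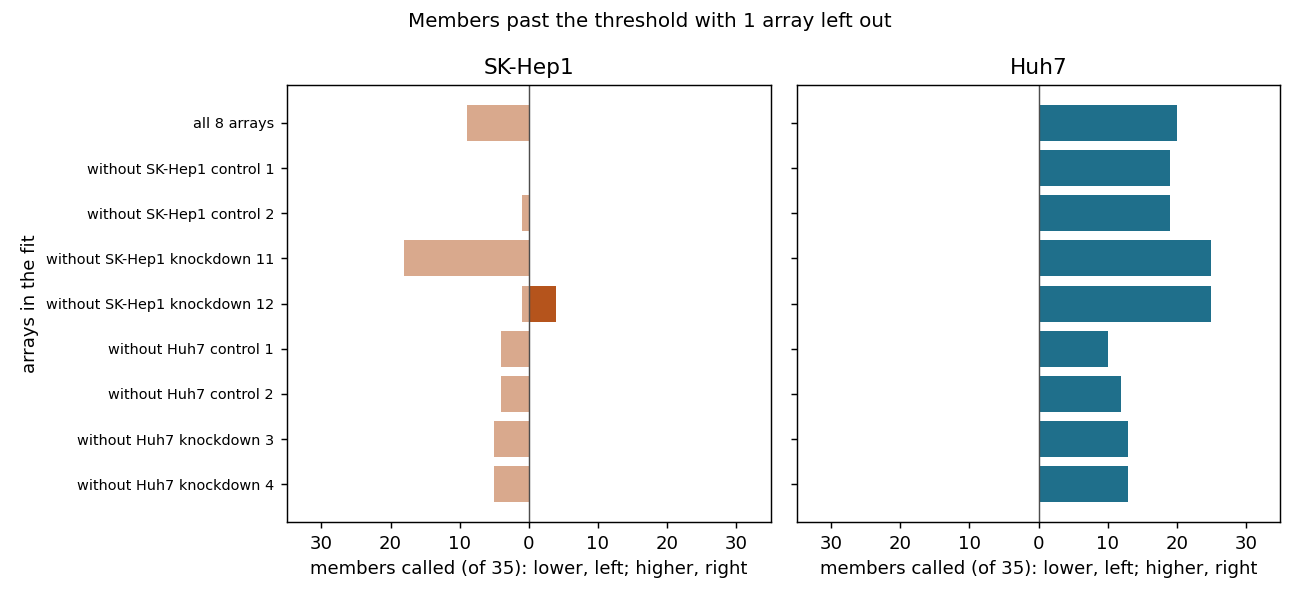
Bars give the number of the 35 genes past an adjusted p of 0.05 (limma) with all 8 arrays and with each array left out, lower to the left in pale colour and higher to the right in full colour. The number of all tested genes past the threshold, not shown, changed in the same direction as the total of the set in these fits. The SK-Hep1 count runs from 0 to 18 lower genes and the Huh7 count from 10 to 25 higher genes.

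Of the 10 origin licensing genes 6 rose in Huh7, namely CDC6 and 5 of the 6 subunits of the MCM2-7 helicase, and 0 fell. None passed the threshold in SK-Hep1. There 4 of the 10 had knockdown arrays below both controls and 1 above both, against 28.7% and 26% of all tested genes. Beside the counts by role, here and below, 19.4% of all tested genes rose in Huh7 and 8.54% fell in SK-Hep1. MCM4 read 11.69 and 11.59 in SK-Hep1 controls, 11.72 and 11.31 after knockdown, 11.16 and 11.25 in Huh7 controls, and 12.18 and 11.71 after knockdown. Both Huh7 knockdown arrays were above their controls, array 3 further than array 4, and the difference was 0.74 ± 0.155 (SE, n = 2 a group, adjusted p = 0.00403). Its other probe gave 0.72. MCM2 read 11.49 and 11.44 against 11.43 and 11.08 in SK-Hep1, and 11.09 and 11.22 against 11.67 and 11.55 in Huh7. MCM5 read 10.72 and 10.56 against 10.66 and 10.35, and 10.34 and 10.35 against 10.78 and 10.76. MCM6 read 12.96 and 13.04 against 12.86 and 12.73, and 12.75 and 12.69 against 13.12 and 13.07. In Huh7 the arrays of these 3 subunits did not overlap, and each rose: MCM2 by 0.46 ± 0.107 (adjusted p = 0.00742), MCM5 by 0.42 ± 0.0999 (adjusted p = 0.00763) and MCM6 by 0.38 ± 0.0737 (adjusted p = 0.0028). In SK-Hep1 their differences were -0.21, -0.14 and -0.20, and that of MCM5 overlapped its controls. These rested on array 12: without knockdown replicate 11 they were -0.38 (adjusted p = 0.0168), -0.29 (0.039) and -0.26 (0.0443), all past the threshold, and without knockdown replicate 12 they were -0.04, 0.02 and -0.13 with no call. MCM2 lost its Huh7 call without control replicate 1 (adjusted p = 0.0679) and without knockdown replicate 3 (0.0588).

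MCM7 read 13.32 and 13.31 against 13.24 and 12.95 in SK-Hep1, and 13.07 and 13.09 against 13.29 and 13.39 in Huh7. It was the last of the subunits past the threshold in Huh7 (0.26 ± 0.0919, adjusted p = 0.0457), and it lost that call in 6 of the 8 fits with 1 array left out (adjusted p up to 0.221), keeping it without either SK-Hep1 knockdown array. In SK-Hep1 MCM7 was at -0.22 with no call (adjusted p = 0.127), or -0.36 (0.0116) without knockdown replicate 11 and -0.08 without knockdown replicate 12. MCM3, the remaining subunit, was at 0.20 in Huh7 and did not pass (adjusted p = 0.121), although its knockdown arrays were above both controls. It passed without either SK-Hep1 knockdown array (adjusted p = 0.0301), as did the loading factor CDT1 (0.0326), which was at 0.21 with all arrays (adjusted p = 0.112). CDC6, which helps to load the helicase, read 7.56 and 7.63 against 7.83 and 7.64 in SK-Hep1, and 7.51 and 7.55 against 7.80 and 7.76 in Huh7. It lay close to the background limit, was higher in both lines, and passed in Huh7 (0.25 ± 0.0779, adjusted p = 0.0296) but without any 1 Huh7 array did not (0.0932 to 0.148). The origin recognition subunits of the set, ORC1 and ORC6, showed no call: ORC1 was at -0.25 (adjusted p = 0.0529) in SK-Hep1 and 0.05 in Huh7, and it passed in SK-Hep1 without knockdown replicate 11 (0.0103). The brightest ORC6 probe stood at 14.58 to 14.72 on all arrays with differences of -0.04 and 0.00, while its other probe, at a mean of 8.85, gave -0.36 and 0.19, so ORC6 was not settled.

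Of the 6 genes of helicase activation 3 rose in Huh7 and 2 fell in SK-Hep1. GINS3, a subunit of the GINS complex that joins the helicase, read 9.92 and 10.10 against 10.03 and 9.62 in SK-Hep1, and 9.58 and 9.54 against 10.25 and 10.25 in Huh7. Its Huh7 arrays stood clear of their controls (0.69 ± 0.117, adjusted p = 0.00129), and in SK-Hep1 they overlapped (-0.18, or -0.39 with adjusted p = 0.0147 without knockdown replicate 11 and 0.02 without knockdown replicate 12). GINS2 read 11.61 and 11.65 against 11.56 and 11.39, and 11.34 and 11.37 against 11.62 and 11.92. It rose in Huh7 by 0.41 ± 0.0987 (adjusted p = 0.00813), more on array 4 than on array 3, and lost the call without control replicate 1 (0.0543) or knockdown replicate 4 (0.0805, at 0.26). MCM10, which helps to activate the helicase, read 9.92 and 10.14 against 10.13 and 9.76 in SK-Hep1, and 9.77 and 9.84 against 10.15 and 10.26 in Huh7. It rose in Huh7 by 0.40 ± 0.117 (adjusted p = 0.0216), and by 0.51 on its other probe, but without any 1 Huh7 array it did not pass (0.052 to 0.123).

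CDC45, the helicase cofactor, showed the larger change in SK-Hep1. It read 12.36 and 12.40 against 12.17 and 11.87 there, and 12.10 and 12.21 against 12.24 and 12.35 in Huh7. The fall in SK-Hep1 was 0.36 on the log2 scale (-0.36 ± 0.0979, adjusted p = 0.03), or -0.21 without knockdown replicate 12, and it did not pass without control replicate 1 (0.109), control replicate 2 (0.125) or knockdown replicate 12 (0.125). GINS4 read 8.26 and 8.09 against 7.96 and 7.78 in SK-Hep1, and 7.90 and 7.995 against 7.97 and 8.16 in Huh7. Its fall in SK-Hep1 (-0.31 ± 0.0957) was at the edge of the threshold (adjusted p = 0.0496) and held in 1 of the 8 fits with an array left out, that without knockdown replicate 11. GINS1, close to the background limit, had higher SK-Hep1 knockdown arrays without a call (0.14, adjusted p = 0.254) and was at -0.03 in Huh7.

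All 6 genes of the replicative polymerases were above 0 in Huh7, where 4 rose, and below 0 in SK-Hep1, where 2 fell. POLA1, the catalytic subunit of polymerase alpha, read 10.67 and 10.66 against 10.43 and 10.31 in SK-Hep1, and 10.24 and 10.20 against 10.78 and 10.80 in Huh7. The groups of each line were apart, with -0.30 ± 0.0678 for SK-Hep1 (adjusted p = 0.0147) and 0.57 ± 0.0678 for Huh7 (adjusted p = 0.000153). The SK-Hep1 call did not hold without control replicate 1 (0.07), control replicate 2 (0.0571) or knockdown replicate 12 (0.0521). Its dimmer probe, at a mean of 7.24, gave -0.25 and 0.17. POLA2, the second subunit of polymerase alpha, read 10.46 and 10.70 against 10.67 and 10.44, and 10.36 and 10.38 against 10.76 and 10.73. It rose in Huh7 (0.38 ± 0.0966, adjusted p = 0.0109) and overlapped in SK-Hep1 (-0.03), and the Huh7 call was lost without control replicate 1 (0.0653), control replicate 2 (0.0528) or knockdown replicate 3 (0.0621). POLE, the catalytic subunit of polymerase epsilon, read 10.04 and 9.92 against 9.78 and 9.67, and 9.74 and 9.70 against 9.90 and 10.01.

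The changes of POLE were of similar size in the opposite directions, -0.26 ± 0.0769 for SK-Hep1 (adjusted p = 0.0431) and 0.24 ± 0.0769 for Huh7 (adjusted p = 0.0339). Neither was firm: the SK-Hep1 call held only without knockdown replicate 11 among the 8 fits with an array left out (otherwise up to 0.206), and the Huh7 call was lost without any 1 Huh7 array (0.0526 to 0.216). POLE2, the second subunit of polymerase epsilon, read 10.71 and 10.57 against 10.63 and 10.42 in SK-Hep1, and 10.46 and 10.44 against 10.67 and 10.76 in Huh7. POLE2 rose in Huh7 by 0.26 ± 0.0859 (adjusted p = 0.0335), again not without any 1 Huh7 array (0.0698 to 0.179). PRIM1, the primase subunit that starts each DNA strand, read 10.94 and 10.93 against 10.83 and 10.57, and 10.68 and 10.73 against 10.93 and 10.95. Its groups were apart in both lines, but it passed in neither, at -0.24 (adjusted p = 0.085) and 0.23 (adjusted p = 0.0527); it passed in SK-Hep1 without knockdown replicate 11 (0.00863) and in Huh7 without either SK-Hep1 knockdown array (0.0107). POLD1, the catalytic subunit of polymerase delta, was at -0.08 and 0.20 without a call (adjusted p = 0.0637 in Huh7, or 0.0339 without either SK-Hep1 knockdown array).

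Clamp loader subunits carried 3 of the 9 falls in SK-Hep1, and RFC2 and FEN1 rose in Huh7. RFC5 read 11.26 and 11.09 against 10.91 and 10.71 in SK-Hep1, and 10.91 and 10.93 against 11.01 and 11.08 in Huh7. RFC4 read 11.76 and 11.77 against 11.47 and 11.49, and 11.65 and 11.65 against 11.68 and 11.58. RFC3 read 10.18 and 10.18 against 9.97 and 9.81, and 9.97 and 10.03 against 10.17 and 10.01. All 3 were lower on each SK-Hep1 knockdown array, with RFC5 at -0.37 ± 0.0872 (adjusted p = 0.0175), RFC4 at -0.28 ± 0.0664 (adjusted p = 0.0171) and RFC3 at -0.29 ± 0.0818 (adjusted p = 0.0379), and none passed in Huh7. RFC4 lost its call without control replicate 1 (0.0718) or control replicate 2 (0.0668). RFC5 lost it without control replicate 1 (0.125) or knockdown replicate 12 (0.0741), and RFC3 without either SK-Hep1 control (0.132 and 0.123), knockdown replicate 12 (0.145) or either Huh7 control (0.0649). A dim RFC3 probe, at a mean of 7.28, gave -0.03 in SK-Hep1, and another, at 9.52, gave -0.35. The second RFC4 probe, almost as bright at a mean of 11.49, gave -0.16 there.

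RFC2 read 8.88 and 8.63 against 8.66 and 8.50 in SK-Hep1, and 8.48 and 8.55 against 8.71 and 8.93 in Huh7. It rose in Huh7 (0.31 ± 0.105, adjusted p = 0.041), though not without control replicate 1 (0.18), control replicate 2 (0.102) or knockdown replicate 4 (0.275, at 0.19). FEN1, the nuclease that trims Okazaki fragments, read 12.63 and 12.53 against 12.95 and 12.60 in SK-Hep1, and 12.45 and 12.43 against 12.88 and 13.02 in Huh7. It rose in Huh7 by 0.51 ± 0.107 (limma adjusted p = 0.00389) and by 0.72 on its other probe. FEN1 was one of 7 genes above 0 in SK-Hep1 (0.20, limma adjusted p = 0.233), or at 0.37 without knockdown replicate 12. Its other probe was at 0.02 in SK-Hep1. PCNA read 11.84 and 11.82 against 12.11 and 11.61 in SK-Hep1, and 11.66 and 11.80 against 11.99 and 12.02 in Huh7. Its SK-Hep1 knockdown arrays stood on opposite sides of the controls, so that it was at 0.28 (adjusted p = 0.0476) without replicate 12 and at -0.22 (0.0866) without replicate 11. In Huh7 it was at 0.27 (adjusted p = 0.121), or 0.00832 as the adjusted p without either SK-Hep1 knockdown array, while a dimmer probe at a mean of 7.63 gave -0.18.

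The enzymes of deoxynucleotide supply rose in Huh7 for 3 of 4 and fell in SK-Hep1 for 2 of 4. RRM2, the small subunit of ribonucleotide reductase that is made for S phase, read 10.59 and 10.45 against 10.64 and 10.47 in SK-Hep1, and 10.17 and 10.10 against 10.88 and 10.90 in Huh7. It rose 1.69-fold in Huh7 (0.76 ± 0.0809, adjusted p = 7.87e-05), the lowest adjusted p of the 35 genes there, and its SK-Hep1 arrays overlapped (0.04 ± 0.0809). RRM1, the large subunit, read 13.30 and 13.31 against 13.06 and 13.04, and 13.07 and 13.16 against 13.28 and 13.21. RRM1 fell in SK-Hep1 (-0.25 ± 0.0677, adjusted p = 0.0314) and was at 0.13 in Huh7 (adjusted p = 0.155), so the subunits of this enzyme were called in different lines. The RRM1 call in SK-Hep1 held without knockdown replicate 11 and in none of the other 7 fits with an array left out (0.0523 to 0.105).

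TYMS, which makes thymidylate, read 12.38 and 12.41 against 12.28 and 12.03 in SK-Hep1, and 11.98 and 11.95 against 12.58 and 12.57 in Huh7. TYMS rose in Huh7 by 0.61 ± 0.084 (1.52-fold, adjusted p = 0.000381), and in SK-Hep1 it was at -0.24 (adjusted p = 0.0795), or -0.36 without knockdown replicate 11 (adjusted p = 0.00863). TK1, the thymidine salvage kinase, read 12.11 and 12.03 against 11.87 and 11.72, and 11.78 and 11.70 against 12.09 and 12.13. It fell in SK-Hep1 (-0.28 ± 0.0753, adjusted p = 0.0315) and rose in Huh7 (0.38 ± 0.0753, adjusted p = 0.00318). The SK-Hep1 call of TK1 was kept without knockdown replicate 11 and lost in the other 7 fits (0.0533 to 0.152), while its Huh7 call held in all 8.

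UHRF1, which reads hemimethylated DNA behind the fork and brings in DNMT1, was listed beside the G1/S regulators. UHRF1 had the largest rise of the 35 genes in Huh7. It read 12.46 and 12.43 against 12.30 and 11.96 in SK-Hep1, and 11.91 and 11.78 against 12.69 and 12.69 in Huh7. The Huh7 rise was 1.8-fold (0.85 ± 0.102, adjusted p = 0.000165), and 0.41 on a dimmer probe. In SK-Hep1 both knockdown arrays were below both controls, at -0.32 ± 0.102 and just short of the threshold (limma adjusted p = 0.0593). Without knockdown replicate 11 UHRF1 was at -0.49 there. The dimmer UHRF1 probe, at a mean of 7.53, was at -0.06 in SK-Hep1. CCNE1, cyclin E1, read 9.39 and 9.41 against 9.93 and 9.48 in SK-Hep1, and 9.32 and 9.31 against 9.68 and 9.86 in Huh7. It was above its controls in both lines and passed in Huh7 (0.45 ± 0.124, adjusted p = 0.0154), not in SK-Hep1 (0.30 ± 0.124, adjusted p = 0.119, or 0.53 with 0.00479 without knockdown replicate 12). The Huh7 call of CCNE1 was lost without control replicate 1 (0.0679), control replicate 2 (0.076) or knockdown replicate 4 (0.111). E2F1 read 7.56 and 7.53 against 7.42 and 7.51, and 7.44 and 7.54 against 7.85 and 7.23, so that its Huh7 knockdown arrays lay on opposite sides of the controls and no change could be read (0.05, adjusted p = 0.829). Without Huh7 knockdown replicate 4 E2F1 was at 0.36 (adjusted p = 0.0232) and without replicate 3 at -0.26 (0.07).

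The difference between the lines was tested as such, as the response in SK-Hep1 minus that in Huh7. The titles of control and knockdown arrays differ between the lines, with SMARCB1_11 on both Huh7 knockdown arrays and 11 and 12 in SK-Hep1. A difference of line and a difference of construct therefore cannot be told apart. The difference passed the threshold for 23 of the 35 genes, all lower in SK-Hep1, where 16.1% of all tested genes passed in that direction and 15.2% in the other (31.3% in either). It was below 0 for 34 of 35 genes, GINS1 being the exception, with a median of -0.470. With 1 array left out, fewer of all tested genes passed, except without SK-Hep1 knockdown replicate 11, where more did, as in the counts below. UHRF1 differed most, by -1.16 ± 0.144 (limma adjusted p = 0.000327), which is a 2.24-fold difference of the ratios. Its dimmer probe, at -0.06 in SK-Hep1 and 0.41 in Huh7, gave a smaller difference. POLA1 had the lowest adjusted p (-0.87 ± 0.0959, limma adjusted p = 0.000176). GINS3 (-0.87 ± 0.166, adjusted p = 0.00347), TYMS (-0.84 ± 0.119, adjusted p = 0.000663), RRM2 (-0.72 ± 0.114, adjusted p = 0.0013), MCM2 (-0.67 ± 0.151, adjusted p = 0.0084) and TK1 (-0.65 ± 0.106, adjusted p = 0.0015) followed, with MCM6, GINS2 and POLE at -0.58, -0.57 and -0.50. These 10 genes passed in all 8 fits with an array left out. The other 13 lost the call in 1 to 6 of them, and the number that passed was 15 without SK-Hep1 control replicate 1, 19 without control replicate 2, 29 without knockdown replicate 11, 17 without knockdown replicate 12, 12 and 16 without Huh7 control replicates 1 and 2, and 18 and 15 without Huh7 knockdown replicates 3 and 4.

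**Figure D3:**
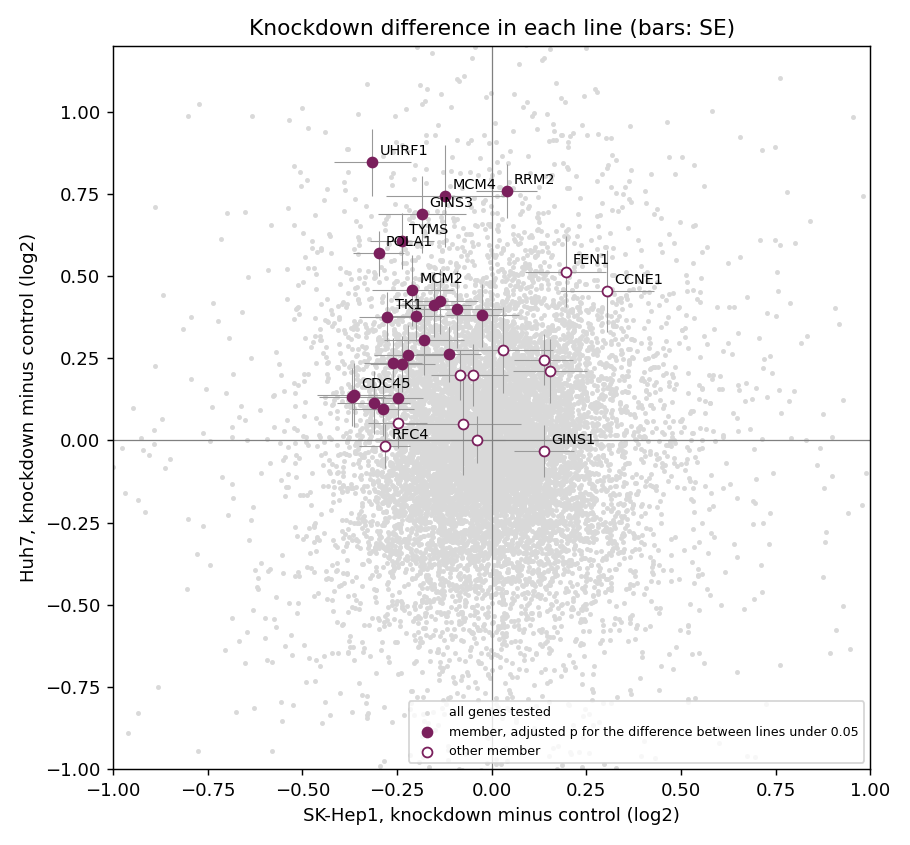
The horizontal axis is the log2 difference, knockdown minus control, in SK-Hep1 and the vertical axis the same in Huh7, with SE bars for the 35 genes and grey points for all tested genes within the plotted range. Filled points are the 23 genes whose difference between the lines passed the threshold, and 27 of the 35 genes lie in the upper left quadrant.

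The 12 genes with no call for the difference between lines included CCNE1, CDC6, CDT1 and FEN1, which were above 0 in both lines. For FEN1 this depended on the probe, as its other probe was at 0.02 in SK-Hep1 and 0.72 in Huh7. The difference was -0.15 ± 0.175 for CCNE1 (adjusted p = 0.556), -0.11 ± 0.11 for CDC6 (0.498), -0.06 ± 0.139 for CDT1 (0.791) and -0.32 ± 0.151 for FEN1 (0.137). Without SK-Hep1 knockdown replicate 11, CCNE1 (-0.38, adjusted p = 0.0274) and FEN1 (-0.49, adjusted p = 0.00752) passed. RFC4, which fell in SK-Hep1 and was at -0.02 in Huh7, differed by -0.27 ± 0.0939 (adjusted p = 0.0534), and ORC1 by -0.30 ± 0.11 (adjusted p = 0.0601, or 0.00894 without SK-Hep1 knockdown replicate 11).

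**Figure D4:**
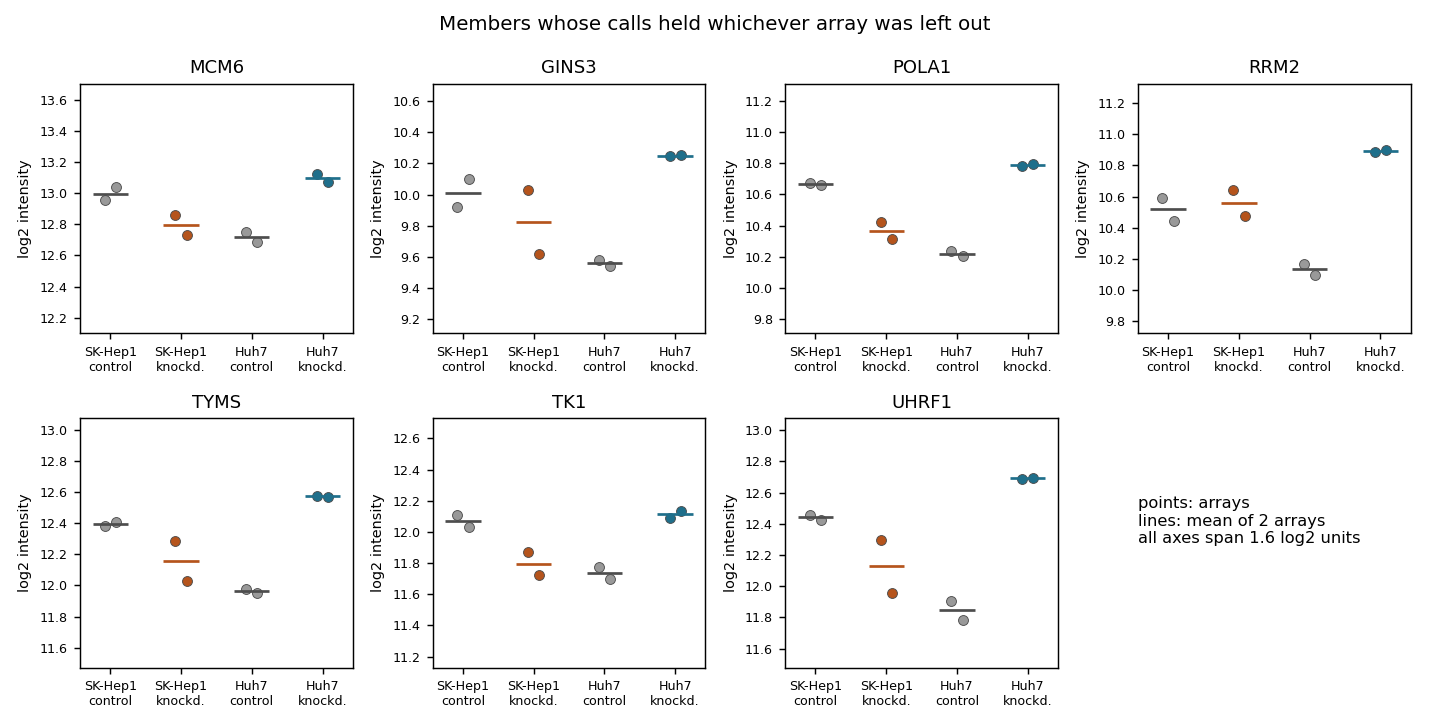
Each panel gives the log2 intensity (vertical axis, 1.6 units in all panels) of 1 gene on the 8 arrays, with a line at the mean of each pair. Shown are the 7 genes whose call in Huh7 and whose difference between lines held whichever array was left out. Levels were not compared between lines because the deposited table holds almost no difference between them.

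Genes of replication outside the set were counted in the same fit. Of 48 other genes for origin, fork and chromatin assembly functions, 46 were tested, and 5 fell and 0 rose in SK-Hep1 (12 and 1 at an unadjusted p under 0.05), with a median of -0.101, while 14 rose and 3 fell in Huh7, with a median of 0.152. That is 10.9% lower in SK-Hep1, near the 8.54% of all tested genes, and 30.4% higher and 6.52% lower in Huh7, against 19.4% and 19.5%. In SK-Hep1 TIMELESS, which protects the fork, fell by 0.45 on the log2 scale (-0.45 ± 0.0835, adjusted p = 0.00544), and TICRR (-0.35), WDHD1 (-0.34) and the origin subunit ORC5 (-0.32) were also lower. In Huh7 TIPIN, the partner of TIMELESS, rose 1.8-fold (0.85 ± 0.101, adjusted p = 0.000159), followed by the ribonuclease H2 subunit gene RNASEH2C (0.82), the MCM-binding protein gene MCMBP (0.50) and ORC5 (0.43). ORC5 therefore passed in opposite directions in the lines, with a difference of -0.75 (adjusted p = 0.000764), while WDHD1 fell in both (-0.21 in Huh7, adjusted p = 0.0478). TICRR lost its call without SK-Hep1 control replicate 1 (0.14) or knockdown replicate 12 (0.0741), ORC5 in SK-Hep1 without control replicate 2 (0.107) or knockdown replicate 12 (0.0737), WDHD1 in SK-Hep1 without control replicate 2 (0.0796), and WDHD1 in Huh7 in 6 of 8 fits (up to 0.273). The counts of this list ran from 2 to 9 lower and 0 to 2 higher in SK-Hep1 with 1 array left out, 9 without knockdown replicate 11, 2 without control replicate 2 or knockdown replicate 12 and 3 without control replicate 1, and in Huh7 there were 6 to 8 higher and 0 or 1 lower without any 1 Huh7 array.

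Nucleotide enzymes outside the set had calls in both directions in each line. Of 41 such genes 37 were tested, with 5 lower and 2 higher in SK-Hep1 and 5 lower and 8 higher in Huh7, and medians of -0.0612 and -0.0295. These counts are 13.5% and 5.41% of the list in SK-Hep1 and 13.5% and 21.6% in Huh7, near the shares of all tested genes (8.54% and 8.31%, 19.5% and 19.4%), and are no result about the list. MTHFD2, the mitochondrial folate enzyme, fell in both lines. It read 11.72 and 11.69 against 11.003 and 11.22 in SK-Hep1 (-0.59 ± 0.0839, adjusted p = 0.00138), and 11.75 and 11.69 against 10.99 and 11.11 in Huh7 (-0.67 ± 0.0839, adjusted p = 0.000214). MTHFD1L, which acts in the same mitochondrial folate pathway, rose in Huh7 (0.41, adjusted p = 0.00117), as did the dCTP pyrophosphatase gene DCTPP1 (0.40) and the pyrimidine enzyme gene UMPS (0.39). In SK-Hep1 the deaminase genes CDA (0.34) and DCTD (0.32) rose and the pyrimidine enzyme gene DHODH fell (-0.29). Without SK-Hep1 knockdown replicate 12 none of these last 3 passed (adjusted p = 0.117, 0.0549 and 0.0961), nor did they without control replicate 1 (0.0613, 0.118 and 0.117); CDA also lost its call without control replicate 2 (0.156) or either Huh7 control (0.0534), DHODH without control replicate 2 (0.0759), and UMPS without Huh7 control replicate 2 (0.054) or knockdown replicate 3 (0.0591). With 1 array left out the SK-Hep1 counts ran from 1 lower and 0 higher (without control replicate 1 or knockdown replicate 12) to 6 and 3 (without knockdown replicate 11), with 2 lower without control replicate 2, 3 lower without a Huh7 knockdown array and 1 higher without control replicate 2 or a Huh7 control. The Huh7 counts fell to 3 lower without any 1 Huh7 array and to 3 higher without Huh7 control replicate 2 or knockdown replicate 3.

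Among 30 tested genes of G1/S control outside the set, 6 fell and 4 rose in SK-Hep1 (20% and 13.3%, against 8.54% and 8.31% of all tested genes) and 4 fell and 9 rose in Huh7 (13.3% and 30%, against 19.5% and 19.4%). E2F7, a repressor that is itself an E2F target, read 10.12 and 10.14 against 9.50 and 9.75 in SK-Hep1, and 9.46 and 9.42 against 10.28 and 10.24 in Huh7. It fell in SK-Hep1 and rose in Huh7, at -0.51 ± 0.0852 (adjusted p = 0.00365) and 0.82 ± 0.0852 (adjusted p = 7.05e-05), with a difference between lines of -1.32 ± 0.121 (adjusted p = 5.49e-05). CDKN1A, the gene of the CDK inhibitor p21, read 12.07 and 12.03 against 12.34 and 12.38 in SK-Hep1, and 12.54 and 12.49 against 11.69 and 11.75 in Huh7. It moved the other way from E2F7, rising by 0.31 ± 0.0655 in SK-Hep1 (adjusted p = 0.00984) and falling by 0.80 on the log2 scale in Huh7 (-0.80 ± 0.0655, adjusted p = 1.42e-05), with a difference of 1.11 ± 0.0926 (adjusted p = 2.83e-05). The SK-Hep1 call of CDKN1A was lost without control replicate 2 (0.0515).

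CCNA2, cyclin A2, fell in SK-Hep1 (-0.45, adjusted p = 0.00443) and rose in Huh7 (0.34, adjusted p = 0.00752, or 0.059 without Huh7 control replicate 2 and 0.0637 without knockdown replicate 4). HELLS, a chromatin remodeller gene, fell in SK-Hep1 (-0.43, adjusted p = 0.0145, or 0.113 without control replicate 1 and 0.0646 without knockdown replicate 12). CCND3, cyclin D3, rose in both lines (0.52 in SK-Hep1 and 0.28 in Huh7), though in Huh7 not without either control (0.0702 and 0.0601) or knockdown replicate 3 (0.0812). The CDK inhibitor gene CDKN2D fell (-0.67) and the phosphatase gene CDC25A rose (0.58) in Huh7, the latter not without control replicate 1 (0.0613) or knockdown replicate 3 (0.056). The list had 3 lower and 2 higher in SK-Hep1 without control replicate 1, 2 higher without control replicate 2, and 5 higher in Huh7 without Huh7 control replicate 1.

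Mitosis and spindle genes, which act later in the cycle, are given for comparison. Of 40 genes 25 fell and 0 rose in SK-Hep1 (32 and 0 at an unadjusted p under 0.05, limma), with a median of -0.310, and 15 rose and 3 fell in Huh7, with a median of 0.134. These are 62.5% lower in SK-Hep1 (8.54% of all tested genes), and 37.5% higher and 7.5% lower in Huh7 (19.4% and 19.5%). The replication genes stood at -0.179 and 0.263, and the difference between these lists was not tested. KIF4A, a chromosome kinesin gene, moved in opposite directions in the lines, at -0.49 in SK-Hep1 (adjusted p = 0.00175) and, for Huh7, 0.56 (adjusted p = 0.000266), and CENPF, a kinetochore gene, was at -0.35 and 0.65 (adjusted p = 0.00556 and 4.9e-05). The kinesin genes KIF15 (-0.55) and KIF20A (-0.52) fell in SK-Hep1, and the spindle genes BIRC5 (0.47) and TPX2 (0.41) rose in Huh7. TPX2 was also lower in SK-Hep1 (-0.32, limma adjusted p = 0.0246), a call that did not hold in every fit with 1 array left out. NEK2, a centrosome kinase gene, fell in SK-Hep1 (-0.61) and in Huh7 (-0.37), in Huh7 not without control replicate 1 (0.138) or knockdown replicate 4 (0.139). The SK-Hep1 count was 10 without control replicate 1 and 15 without knockdown replicate 12, and the Huh7 count of rises 5 to 8 without any 1 Huh7 array, with 0 or 1 fall, against 5 falls without either SK-Hep1 knockdown array.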

How the data were processed

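Total RNA of 8 samples of SK-Hep1 and Huh7 was measured on Illumina BeadChips, with 0.55 µg of RNA per labelling, per the labels' protocols. GenomeStudio 2011.1 was used, per the submitters' processing notes. The authors deposited a table of log2 intensities for 47319 probes, and how these were normalized or corrected for background is not given in the sources used here. It was used as deposited. If background is part of the values, changes of dim genes are understated. A second table, with 16 columns of signals and detection p-values named only by running numbers, was not used because no column matches a label. Groups came from the sample titles.

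Probes were named through the platform annotation (30110 with 1 gene symbol, 8 with several, 17201 with none). Probes passed when their mean exceeded the 95th percentile, 7.003, of 637 probes for gene families silent in most tissues (smell, taste and pheromone receptors, hair keratin partners, defensins), which 45.3% did. The brightest probe stood for its gene. The sources gave no detection calls by sample. The test was limma's moderated test (version 3.58.1, R 4.3.3; lmFit and eBayes with 4 group means and 4 residual degrees of freedom, two-sided), adjusted by Benjamini-Hochberg over 12411 genes at 0.05, and it was checked on simulated data. Alternatives were another filter (99th percentile), no filter, the mean over probes, 2 quantile normalizations, background subtraction with a floor of 16, the line alone, array weights, a trended robust prior and leaving out each array. The members and lists were chosen with earlier results of these data known. Values by array are given for genes called in SK-Hep1 or between lines and the 12 lowest adjusted p in Huh7, and from other lists up to 4 called genes a line by size; MCM3, CDT1 and others are named to account for every member. Motifs were exact letter matches in RefSeq promoter windows.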

Additional observations from a re-analysis of the deposited data

Results flagged for a closer look

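The difference between knockdown and control differed between SK-Hep1 and Huh7 by the test of that difference in limma for 23 of the 35 genes, all lower in SK-Hep1. In log2 units, SK-Hep1 difference minus Huh7 difference, these were POLA1 (-0.87), UHRF1 (-1.16), TYMS (-0.84), RRM2 (-0.72), TK1 (-0.65), MCM6 (-0.58), GINS3 (-0.87), POLE (-0.50), MCM2 (-0.67), RFC5 (-0.50), GINS2 (-0.57), MCM5 (-0.56). The remaining ones were MCM4 (-0.87), RRM1 (-0.38), PRIM1 (-0.47), MCM7 (-0.48), CDC45 (-0.50), RFC3 (-0.38), RFC2 (-0.48), GINS4 (-0.43), POLE2 (-0.38), POLA2 (-0.41) and MCM10 (-0.49). They are ordered by adjusted p, from 0.000176 for POLA1 to 0.0468 for MCM10, with n = 2 arrays a group in the limma fit. Groups of 2 arrays were too small to test for a sample apart from the others.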

How the results depend on the processing

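The direction of the SK-Hep1, Huh7 and between-line medians was the same under every alternative tried. The share of all tested genes called also varied with the setting and with the array left out. In SK-Hep1, in either direction, it was 16.8% in the main fit and 8.89% with no filter. It was 10.7% there with background subtracted, 8.75% with the line alone and 9.65% with array weights. With background subtracted it went from 38.9% to 32.8% in Huh7 and from 31.3% to 24.4% between the lines. The changes in the counts below are therefore not particular to the set. In SK-Hep1 the 9 genes called lower became 4 with no filter on dim probes (20044 genes tested), 2 with background subtracted on the linear scale, 0 with the SK-Hep1 arrays fitted alone (2 residual degrees of freedom, where the adjustment over all genes still called 1086) and 2 with array weights; the cause was not tested beyond these numbers. With 1 array left out they ran from 0 to 18, the genes called higher from 0 to 4 and the median from -0.271 to -0.0689. In Huh7 the genes called higher ran from 10 to 25 and the median from 0.255 to 0.307 with 1 array left out, and with background subtracted 14 were called, as MCM7, MCM10, POLE, POLE2, RFC2 and CCNE1 lost their calls, with a median of 0.2819. The genes called between the lines were 13 with background subtracted and 12 to 29 with 1 array left out, where the median ran from -0.550 to -0.337.

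No called gene of the set reversed. PCNA, with no call, was at -0.046 in SK-Hep1 as the mean over its probes. Values with no call that crossed 0 with 1 array left out ran, in SK-Hep1, from -0.390 to 0.0214 for GINS3, -0.275 to 0.0945 for MCM10, -0.202 to 0.1005 for MCM3, -0.330 to 0.0833 for MCM4, -0.293 to 0.0199 for MCM5, -0.221 to 0.281 for PCNA, -0.146 to 0.0961 for POLA2 and -0.0442 to 0.123 for RRM2. In Huh7 they ran from -0.261 to 0.359 for E2F1, -0.0979 to 0.0315 for GINS1, -0.0697 to 0.0748 for ORC6 and -0.0649 to 0.0328 for RFC4. Between the lines they ran from -0.376 to 0.0750 for CCNE1, -0.207 to 0.0936 for CDT1, -0.434 to 0.186 for E2F1, -0.112 to 0.0323 for ORC6 and -0.496 to 0.0066 for PCNA. No paired analysis was possible because control and knockdown arrays of a line share no replicate number. The number of arrays set the precision, and signal near background limits GINS1, E2F1 and CDC6, and outside the set UMPS and DHODH.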
